A study of Homo sapiens with 4 samples.

Results

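The genes described here build the contacts, the inner scaffold and the apical-basal order of epithelial cells: cadherins, claudins and desmosomal proteins, keratins, epithelial splicing and sorting factors, surface proteases with their inhibitors, and polarity proteins. They were taken as a list of 44 gene symbols, each matched to its Ensembl identifier, and all 44 were found among the 20263 genes of the count table. Of these, 43 had enough counts to be tested, and KRT20 did not. The cells were HCT116, an established human colon cancer line, exposed to the compound N_12 or to DMSO alone during 24 h of culture, and each group had 2 mRNA sequencing libraries. The series title calls the compound a derivative of nilotinib, a kinase inhibitor, and names the epithelial to mesenchymal transition, proliferation and migration as its subject. For the N_12 samples the treatment label carries another compound code, HJJ_3_5, and no dose is given. All libraries come from a single cell line, and nothing says that replicates were separate cultures, so p-values measure only the spread between these libraries, which may be technical.

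Epithelial cells hold to each other through 3 kinds of junction. In adherens junctions, classical cadherins bind the same cadherin on the neighbouring cell and are tied to actin by catenins. In tight junctions, claudins and occludin-like proteins seal the space between cells, and scaffold proteins anchor them below the membrane. In desmosomes, desmogleins and desmocollins bind across the gap, and plaque proteins link them to keratin filaments. Loss of cadherin and claudin expression is a classical sign of the epithelial to mesenchymal transition, in which SNAI and ZEB factors bind E-boxes (CACCTG) of epithelial promoters.

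Total counts were 29769568 to 41717938 per library. The share of counts from mitochondrially encoded genes was 6.59% and 7.73% in the DMSO libraries and 9.61% and 8.23% in the N_12 libraries, so it moved with the group, and its part in the results was not tested. Of 10 markers of colonic epithelium, KRT8, KRT18, EPCAM and CDX2 were well above the detection filter. The list's summed level, mostly KRT8, was 2762 and 2490 CPM (counts scaled to a common library size of 1e+06) in DMSO and 2065 and 2253 CPM in N_12. CDX2, an intestinal transcription factor, lay the other way, with 13.6 and 14.3 CPM in DMSO and 22.1 and 20.7 CPM in N_12 (log2 fold change 0.62, SE 0.16, edgeR adjusted p = 0.0926). CDX1 had 0 counts in every library, and VIL1, KRT20, LGALS4, CDH17 and GPA33 had at most 12 counts in any library, so markers of mature colonocytes were at or near 0. Of 8 fibroblast, 8 leukocyte and 7 endothelial markers, 1, 2 and 3 passed the filter, and DCN, LUM, COL1A2, PTPRC and CD3E were at 0 throughout. The summed levels of these 3 lists were 55.5 to 65.0 CPM, nearly all of it COL1A1, for fibroblasts, 35.1 to 49.4 CPM, nearly all of it CD68, for leukocytes, and 7.55 to 13.6 CPM for endothelial cells. The fibroblast sum was lower in both N_12 libraries (55.5 and 60.4 CPM, against 65.0 and 61.2 CPM) and the leukocyte sum higher (49.4 and 42.6 CPM, against 42.3 and 35.1 CPM), while the endothelial sum overlapped. The part of these marker lists in the results was not tested.

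One member was called at an adjusted p of 0.05, counted over all 14105 tested genes: AP1M2, which fell in N_12. The member share called lower was 2.33% (1 of 43), beside 1.43% of all tested genes, and no member was called higher, beside 0.822%. In either direction, 2.25% of all tested genes were called. DESeq2 and limma-voom also called no member higher, whereas edgeR with a replicate block called CLDN2 and TJP1 higher, beside 3.11% of all tested genes. At an unadjusted p under 0.05, 10 of 43 members lay lower (23.3%) and 4 lay higher (9.30%), where all genes gave 10.8% and 11%. In N_12 both libraries lay below both DMSO libraries for 17 members (26.8% of all genes) and above them for 10 (27.9%), and 16 members overlapped. The median log2 fold change of the 43 members was -0.10, beside 0.01 for all tested genes, and 30 of 43 lay below 0 (69.8%, where 49% of all genes did). However, 13 of the 43 changed sign in some of the 14 alternative settings given below. Among these were CLDN4 and F11R, both counted below 0, and ST14, whose value was the median. With 2 libraries a group an exact permutation test over libraries cannot give a two-sided p under 0.333, so only the model over all genes was used. In bulk libraries, fewer cells expressing a gene and less RNA per cell cannot be told apart.

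The 3 junction types had different medians, which are descriptions without a test. All 5 adherens members lay below 0 (median -0.35), 7 of 12 tight junction members did (median -0.06), and the 8 desmosomal members split 4 to 4 (median 0.07). Of the adherens members, CTNNA1 was at -0.10, and CTNND1 was at -0.0036 and changed sign in 4 of 14 alternative settings. Further tested genes of these classes, described below, had medians of 0.02 (12 adherens), 0.03 (17 tight junction) and 0.30 (4 desmosomal). The adherens median stayed between -0.43 and -0.27 and the desmosomal median between 0.02 and 0.12 over all 14 alternative settings. The tight junction median went from -0.16 to 0.14. Over these settings CLDN4 ran from -1.76 to 3.20 and F11R from -0.83 to 1.04, and CLDN3 and OCLN also changed sign. The 7 tight junction members below 0 include CLDN4 (-0.11, interval -8.04 to 7.82) and F11R (-0.18, interval -2.98 to 2.63), whose directions are not settled. CLDN4 and CLDN3 (-0.02) were the middle members that set the median of -0.06. Neither this median nor the count below 0 was computed without CLDN4 and F11R, so neither gives a direction for the class. Relative to each gene's mean over the 4 libraries, the adherens median was 0.26 and 0.09 in the DMSO libraries and -0.11 and -0.07 in the N_12 libraries, which do not overlap. For desmosomal members it was -0.14 and -0.01 in DMSO and 0.03 and 0.04 in N_12, also without overlap. Tight junction members gave 0.02 and -0.0021 in DMSO and -0.12 and 0.16 in N_12, so the N_12 libraries lay on both sides of the controls. The medians of sorting, protease and polarity members did not overlap either, while the keratin medians did. Separation of 2 libraries from 2 is common: N_12 lay below DMSO without overlap for 26.8% of all tested genes and above for 27.9%.

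**Figure D1:**
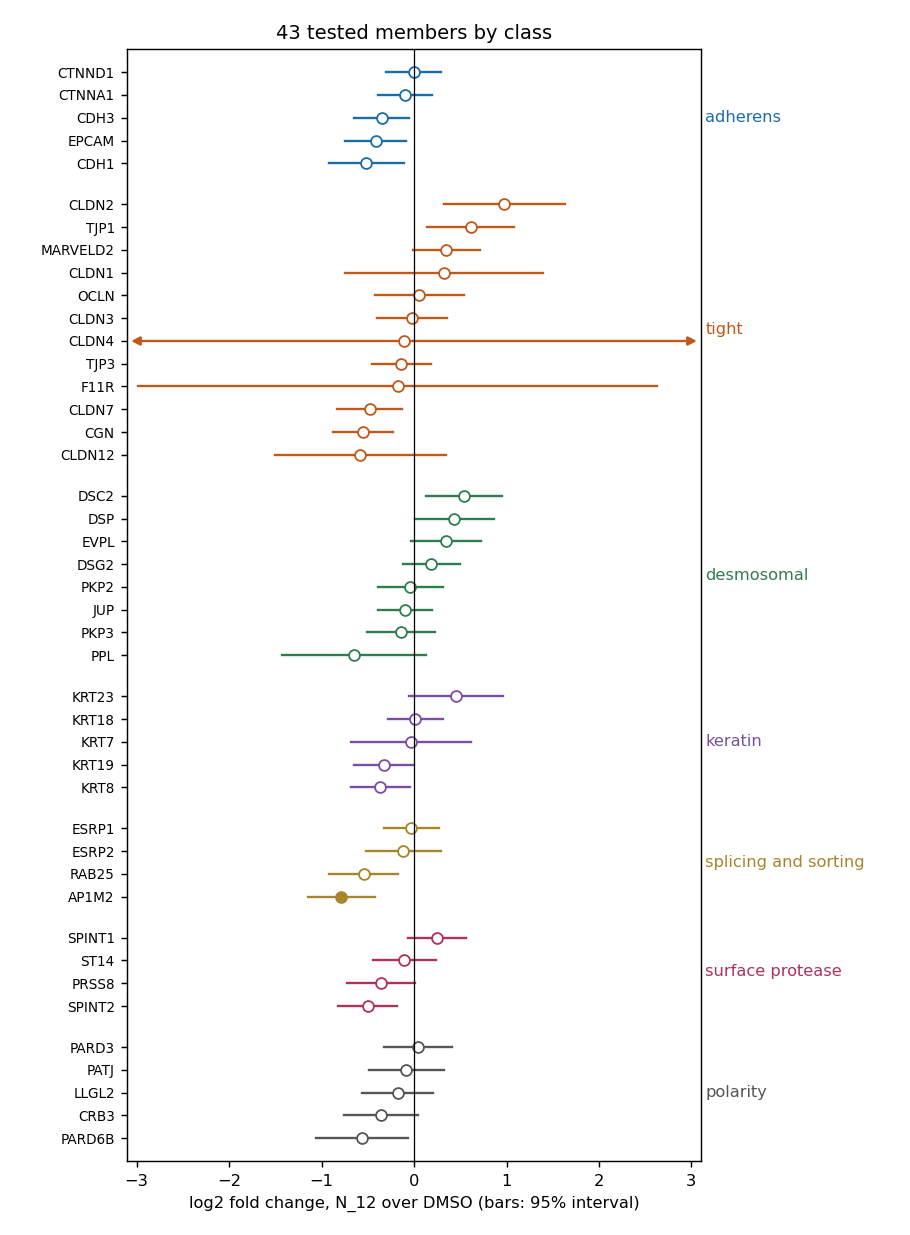
Log2 fold change of N_12 over DMSO for the 43 tested members, grouped by class, with 95% intervals as bars and a filled point for a gene called at an adjusted p of 0.05. AP1M2 is the 1 filled point, all 5 adherens members lie at or left of 0, and the interval of CLDN4 runs past both ends of the axis.

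Promoter windows, reaching from 250 bases before to 50 bases after a gene's start, were found for 23 of the 44 members in the RefSeq table (build GRCh38.p14); where a gene had several starts the first listed was used. The E-box CACCTG, searched on both strands (CAGGTG on the other), was present in 11 of these 23 windows (47.8%), beside 20.6% of the 27305 promoters of the table. These 11 were CLDN3, OCLN, TJP1, DSP, DSG2, DSC2, KRT20, RAB25, AP1M2, CRB3 and PATJ, which include genes on both sides of 0. No window was found for CDH1, CDH3, CTNND1 or EPCAM. CTNNA1, whose window lacked the E-box, was thus the only adherens member searched, and the share says nothing of the cadherin promoters. The motif GCCNNNGGC of TFAP2 factors was in 8 of 23 windows (34.8%, against 23.0% of all promoters). Neither AACCGGTT, the site of grainyhead-like factors, nor TATAAA was in any of the 23 windows (0.117% and 11.95% of all promoters). A match is a string of letters, not a bound site. The windows of AP1M2 (chr19:10587263-10587562, minus strand), RAB25 (chr1:156060910-156061209, plus strand), CRB3 (chr19:6464021-6464320, plus strand) and DSP (chr6:7541421-7541720, plus strand) are shown. They were picked after the values were seen, as the called gene, its fellow of the sorting class, the member with most E-boxes and a member with N_12 above DMSO. Capitals mark the E-box in either orientation.
AP1M2: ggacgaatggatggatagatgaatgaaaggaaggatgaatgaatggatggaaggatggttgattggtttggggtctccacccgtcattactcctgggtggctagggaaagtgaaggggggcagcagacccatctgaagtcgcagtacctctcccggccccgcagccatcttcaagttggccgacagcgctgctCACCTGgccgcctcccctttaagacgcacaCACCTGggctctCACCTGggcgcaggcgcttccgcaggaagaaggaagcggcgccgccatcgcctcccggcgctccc
RAB25: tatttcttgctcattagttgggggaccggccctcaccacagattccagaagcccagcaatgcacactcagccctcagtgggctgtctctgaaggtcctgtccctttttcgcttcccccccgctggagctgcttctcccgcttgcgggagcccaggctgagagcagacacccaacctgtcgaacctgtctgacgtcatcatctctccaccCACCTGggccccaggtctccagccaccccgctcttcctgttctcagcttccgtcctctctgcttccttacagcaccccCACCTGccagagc
CRB3: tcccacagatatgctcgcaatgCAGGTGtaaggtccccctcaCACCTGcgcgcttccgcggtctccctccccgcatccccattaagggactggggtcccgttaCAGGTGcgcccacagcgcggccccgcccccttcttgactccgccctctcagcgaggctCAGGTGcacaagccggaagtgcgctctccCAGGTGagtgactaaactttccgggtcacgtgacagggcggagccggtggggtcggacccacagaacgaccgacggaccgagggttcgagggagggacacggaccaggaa
DSP: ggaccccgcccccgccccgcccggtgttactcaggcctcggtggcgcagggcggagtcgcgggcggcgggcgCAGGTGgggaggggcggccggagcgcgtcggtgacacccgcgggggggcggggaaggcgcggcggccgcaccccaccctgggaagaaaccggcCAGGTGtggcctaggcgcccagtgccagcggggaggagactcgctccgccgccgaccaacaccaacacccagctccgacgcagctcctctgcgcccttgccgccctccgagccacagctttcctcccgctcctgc

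The AP1M2 window held 3 E-boxes, beginning 57, 27 and 15 bases before the gene's start. RAB25 held 2, beginning 41 bases before and 37 bases after the start. CRB3 held 5, all upstream, and DSP held 2, beginning 178 and 85 bases before the start. Of these 4 genes only AP1M2 passed the test, and since DSP was picked for its direction, nothing follows from the directions of the 4.

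Among adherens members, CDH1, the E-cadherin of epithelial contacts (ENSG00000039068), measured 85.9 and 75.2 CPM in the DMSO libraries and 48.7 and 63.9 CPM in the N_12 libraries. The groups did not overlap, and N_12 replicate 1 was the lowest of the 4 (log2 fold change -0.52, SE 0.18, edgeR adjusted p = 0.151). CDH3, the P-cadherin, was the more abundant cadherin, with 288.9 and 258.2 CPM in DMSO and 214.2 and 214.5 CPM in N_12 (a log2 difference of -0.35, with 95% limits of -0.65 and -0.05, edgeR adjusted p = 0.174). Per kilobase of exon, the CDH3 level was 3.33 times the CDH1 level in DMSO replicate 1 and 3.399 times in DMSO replicate 2, and 4.35 and 3.32 times in the N_12 libraries. These ratios overlapped, so the balance of the cadherins was not separated between groups.

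EPCAM, a surface adhesion protein of epithelial cells that acts apart from cadherins, measured 276.1 and 252.7 CPM in DMSO and 215.6 and 180.7 CPM in N_12 (-0.42, SE 0.14, adjusted p = 0.152). N_12 replicate 2 was the lowest, the reverse of the order seen for CDH1. The catenins, which sit on the inner face of the cadherins, were closer to the controls. CTNNA1, the actin-binding alpha-catenin, measured 499.9 and 522.1 CPM in DMSO and 456.5 and 497.1 CPM in N_12, a log2 difference of -0.10 (SE 0.13, adjusted p = 0.683). CTNND1, which stabilises cadherins at the membrane, measured 126.8 and 133.5 CPM in DMSO and 125.7 and 133.9 CPM in N_12 (-0.0036, SE 0.13, adjusted p = 0.992). CTNND1 overlapped between groups, and the N_12 libraries of CTNNA1 lay below the controls by less than the groups' own gaps. The summed level of the 5 adherens members, EPCAM included, was 1278 and 1242 CPM in DMSO and 1061 and 1090 CPM in N_12, that is 85.4% of the DMSO mean.

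Of 12 further adherens genes that were tested, from a list of 17, none was called by edgeR (0 also at an unadjusted p under 0.05), with a median of 0.02. The smallest p belonged to CTNNAL1, an alpha-catenin-like protein gene (-0.34, SE 0.17, adjusted p = 0.295), and to ARVCF, an armadillo protein that binds cadherins (-0.35, SE 0.18, adjusted p = 0.304). CTNNB1, the beta-catenin, had a log2 fold change of 0.0029. Of the cadherins of mesenchymal cells, CDH2, the N-cadherin, had at most 4 counts in a library and CDH11 had 0 in all, so neither was tested.

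Tight junction members went in both directions. CGN, the cingulin that ties tight junctions to the cytoskeleton, measured 80.5 and 78.9 CPM in DMSO and 53.1 and 55.8 CPM in N_12 (log2 fold change -0.55, SE 0.14, edgeR adjusted p = 0.0849). The groups were far apart relative to the gaps within them, and yet the test was not passed. CLDN7, a claudin that also occurs along the lateral membrane, measured 110.8 and 93.1 CPM in DMSO and 77.5 and 68.8 CPM in N_12 (-0.48, SE 0.15, adjusted p = 0.134). In the other direction, CLDN2, a pore-forming claudin, measured 2.69 and 3.06 CPM in DMSO and 4.30 and 7.02 CPM in N_12 (0.98, SE 0.28, adjusted p = 0.111). CLDN2 had the highest log2 fold change of all members, on counts of only 82 to 286 per library, and its N_12 libraries differed by more than its DMSO libraries.

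The scaffold genes TJP1 and TJP3 encode zonula occludens proteins, which connect claudins to actin. TJP1 measured 65.4 and 93.8 CPM in DMSO and 109.5 and 133.7 CPM in N_12 (0.61, 0.14 to 1.08, edgeR adjusted p = 0.147), and its size depended on single libraries. It was called higher without DMSO replicate 2 (0.90, adjusted p = 0.0471), but was at 0.37 (adjusted p = 0.537) without DMSO replicate 1 and at 0.45 (adjusted p = 0.434) without N_12 replicate 2. TJP3 measured 128.1 and 124.0 CPM in DMSO and 106.2 and 122.7 CPM in N_12 (-0.14). The ratio of TJP1 to TJP3 per kilobase was 0.191 and 0.283 in DMSO and 0.386 and 0.408 in N_12, without overlap, though the DMSO libraries alone differed by more than the N_12 libraries. Proteins that seal tricellular and bicellular contacts gave 0.35 for MARVELD2, the tricellulin (-0.01 to 0.71), and 0.06 for OCLN, the occludin. CLDN3, a barrier claudin, was at -0.02, and CLDN1 at 0.32 on 12 to 23 counts per library.

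The barrier claudin CLDN4 stood apart from all other members in its spread. It measured 457.8 CPM in DMSO replicate 1 and 24.3 CPM in DMSO replicate 2, and 70.6 and 376.2 CPM in N_12 replicates 1 and 2. The high library exceeded the low one 18.8-fold within DMSO and 5.33-fold within N_12, and the groups overlapped completely. Among the 11236 genes whose mean reached 5 CPM, the median of this fold was 1.11 within DMSO and 1.14 within N_12, and 7 genes, CLDN4 included, had a DMSO fold of 18.8 or more. The log2 fold change between treatments was -0.11 with an interval of -8.04 to 7.82, so these libraries do not measure an effect on CLDN4. It lay between -1.76, without N_12 replicate 2, and 3.20, without DMSO replicate 1. The neighbouring family member CLDN3 measured 24.1, 26.2, 22.8 and 26.9 CPM in the same libraries, a range with no such spread.

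F11R, the junctional adhesion molecule A, showed a similar pattern in the controls, with 268.9 and 73.6 CPM in DMSO and 134.4 and 168.8 CPM in N_12. Its direction depended on which control was used. Without DMSO replicate 1 it was called higher in N_12 (log2 fold change 1.04, adjusted p = 0.0325), without DMSO replicate 2 it was called lower (-0.83, adjusted p = 0.0478), and with all libraries it was at -0.18. With these libraries left out, 1.63% and 3.11% of all tested genes were called. Of the exon bases of F11R, 36.6% are shared with AL591806.3 on the same strand, so its count also depends on how reads were assigned. CLDN4 shares none with another gene on either strand in the annotation used. CLDN12, which has 16.3% of its exon bases shared with genes on the same strand, measured 69.8 and 74.5 CPM in DMSO and 64.6 and 31.8 CPM in N_12, so its -0.58 rests on N_12 replicate 2, without which it was at -0.16.

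**Figure D2:**
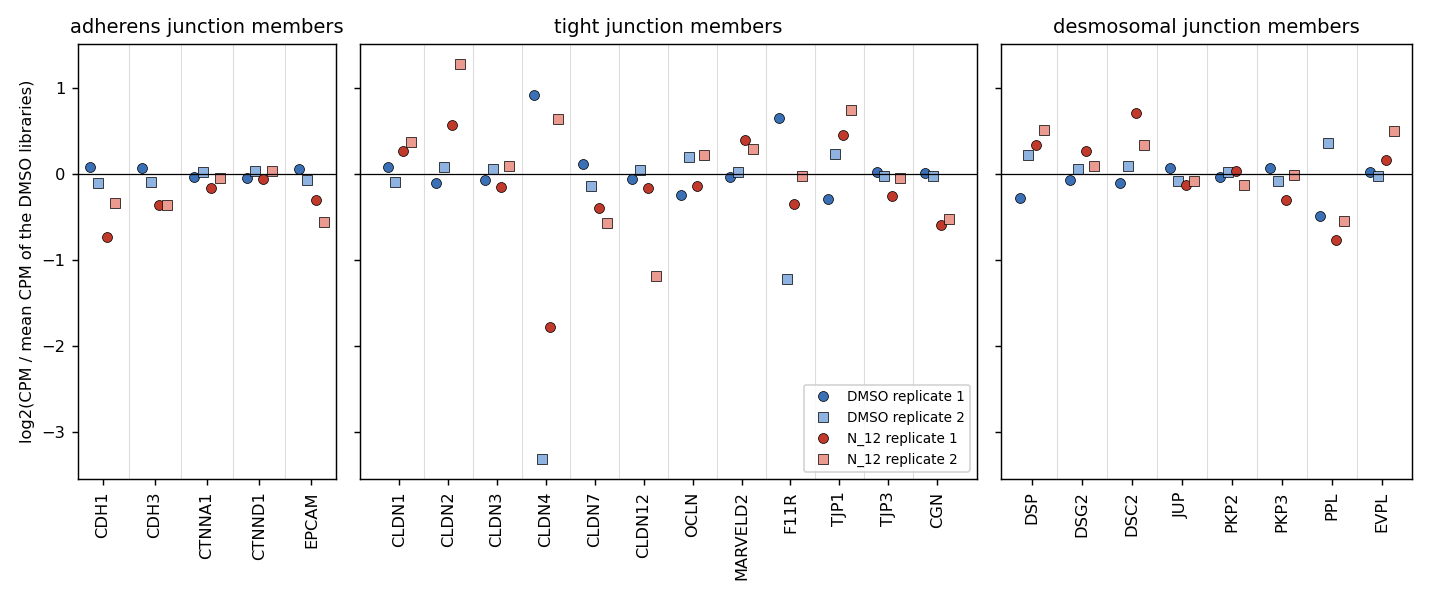
Log2 of each library's CPM over the mean of the DMSO libraries, for the members of adherens, tight and desmosomal junctions, with circles for replicate 1 and squares for replicate 2. The squares and circles of CLDN4 and F11R spread widely within a group, CGN separates by group, and DSP, DSC2 and EVPL have both N_12 points above both DMSO points.

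**Figure D3:**
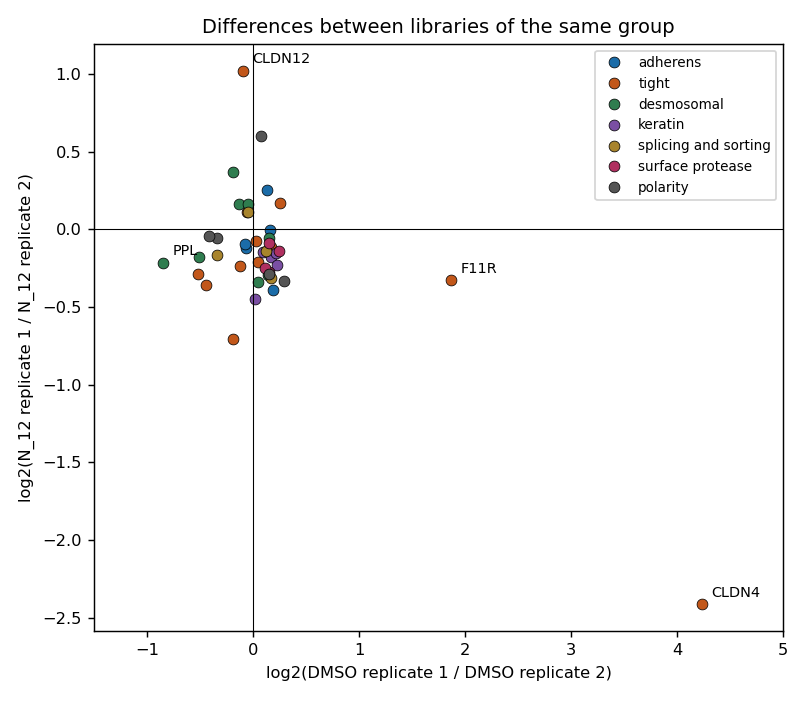
Log2 ratio of the libraries of 1 group, DMSO on the horizontal axis and N_12 on the vertical axis, for the 43 members with counts in every library; genes over 0.75 on either axis are named. CLDN4 lies far from the rest on both axes, F11R and PPL on the DMSO axis and CLDN12 on the N_12 axis.

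CLDN4 also set the summed level of the tight junction members. That sum was 1251 and 644 CPM in DMSO and 695 and 1049 CPM in N_12. Without CLDN4 and F11R, left out after their values were seen, it was 525 and 546 CPM in DMSO and 490 and 504 CPM in N_12, or 92.8% of the DMSO mean. The 6 claudins changed places accordingly: per kilobase, CLDN4 held 56.6% of the claudin signal in DMSO replicate 1 and 6.87% in DMSO replicate 2, where CLDN7 held 25.8% and 49.7%. Of 17 further tight junction genes tested from a list of 27, edgeR called none, 2 were higher and 3 lower at an unadjusted p under 0.05, and the median was 0.03. CXADR, a virus receptor of the junction, had the smallest p (-0.59, SE 0.17, adjusted p = 0.111), followed by CLDN18 (-1.24, SE 0.40, adjusted p = 0.136), a low gene of 19 to 33 counts per library.

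Desmosomal cadherins and the protein that ties them to keratin lay above the controls. DSC2, a desmocollin, measured 37.9 and 43.3 CPM in DMSO and 66.6 and 51.6 CPM in N_12 (log2 fold change 0.54, SE 0.18, edgeR adjusted p = 0.143). DSP, the desmoplakin that binds keratin filaments, measured 201.5 and 285.9 CPM in DMSO and 309.1 and 349.6 CPM in N_12 (0.43, SE 0.18, adjusted p = 0.224). Neither passed the test, and for DSP the DMSO libraries differed from each other by more than the N_12 libraries did. The DSP value was 0.21 without DMSO replicate 1 and 0.71 without DMSO replicate 2. DSG2, the desmoglein of simple epithelia, was at 0.19 (-0.12 to 0.49) and EVPL, the envoplakin of the plaque, at 0.35 (-0.03 to 0.72), with 57.8 and 56.0 CPM in DMSO and 63.9 and 80.7 CPM in N_12.

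The members among the armadillo proteins of the plaque lay close to 0. JUP, the plakoglobin shared by desmosomes and adherens junctions and the most abundant desmosomal member per kilobase, was at -0.10 (-0.39 to 0.19). The plakophilins PKP2 and PKP3 were at -0.04 and -0.14, and for these 3 genes the groups overlapped. PPL, the periplakin that pairs with envoplakin, measured 187.8 and 337.4 CPM in DMSO and 155.1 and 179.9 CPM in N_12. Its -0.65 rested largely on DMSO replicate 2: it was called lower without DMSO replicate 1 (-1.01, adjusted p = 0.0153) and was at -0.16 without DMSO replicate 2. The summed level of the 8 members was 1489 and 1687 CPM in DMSO and 1575 and 1634 CPM in N_12, overlapping between groups.

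Of 4 further desmosomal genes tested from a list of 9, none was called, and 2 lay higher and 1 lower at an unadjusted p under 0.05. DSC3, another desmocollin, measured 11.5 and 12.2 CPM in DMSO and 23.4 and 18.7 CPM in N_12 (0.83, SE 0.18, adjusted p = 0.0627). PERP, a membrane protein needed for desmosomes and a target of p53, measured 510.3 and 489.5 CPM in DMSO and 410.9 and 331.5 CPM in N_12 (-0.43, SE 0.14, adjusted p = 0.147). In N_12 both desmocollins thus lay above and PERP below the controls, without overlap. The other gene counted as higher was PKP4, an armadillo protein related to the plakophilins, named after its values were seen. It measured 56.9 and 68.3 CPM in DMSO and 84.1 and 86.1 CPM in N_12 (0.44, SE 0.15, edgeR adjusted p = 0.150), so it lay further from the controls than the plakophilin members.

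Keratins are the filaments that desmosomes hold, and type II keratins such as KRT8 pair with type I keratins such as KRT18 and KRT19. KRT19, KRT8 and KRT18 were the 3 most abundant members per kilobase, at 699.9, 269 and 154 CPM per kilobase in DMSO. KRT8 measured 1959 and 1742 CPM in DMSO and 1350 and 1524 CPM in N_12 (log2 fold change -0.36, SE 0.14, edgeR adjusted p = 0.181). KRT19 measured 1760 and 1510 CPM in DMSO and 1238 and 1378 CPM in N_12 (-0.32, SE 0.14, adjusted p = 0.231). Both had N_12 below DMSO, while KRT18 was at 0.01 (-0.28 to 0.31) with overlapping groups.

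The ratio of KRT8 to KRT18 per kilobase was 1.79 and 1.70 in DMSO and 1.33 and 1.35 in N_12, so within each group the libraries were close and between groups they did not overlap. GENCODE lists 50 pseudogenes named after KRT8, 68 after KRT18 and 5 after KRT19, so the counts of these genes are uncertain where reads match a copy. KRT8 and KRT18 also lie on opposite strands with 7.63% and 16.3% of their exon bases in common, and the strand setting of the counting is not known. KRT23, a type I keratin, measured 4.17 and 3.57 CPM in DMSO and 4.87 and 5.72 CPM in N_12 (0.45, SE 0.22, adjusted p = 0.279). KRT7 was at -0.03 on 63 to 99 counts per library, and KRT20, a keratin of mature colonocytes, had 0, 8, 8 and 12 counts and was not tested. The summed level of the 6 keratins was 4238 and 3738 CPM in DMSO and 3071 and 3437 CPM in N_12. These sums did not overlap, but the gap between groups was smaller than the gap within either group.

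Of 10 further keratin genes tested from a list of 18, none was called, 1 lay higher and 3 lower at an unadjusted p under 0.05, and the median was -0.24. KRT15, a keratin of basal epithelia, measured 49.8 and 46.8 CPM in DMSO and 24.1 and 30.9 CPM in N_12 (-0.81, SE 0.18, adjusted p = 0.0596). KRT80 measured 4.92 and 3.67 CPM in DMSO and 2.23 and 2.70 CPM in N_12 (-0.80, SE 0.26, adjusted p = 0.135). The groups did not overlap for either.

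**Figure D4:**
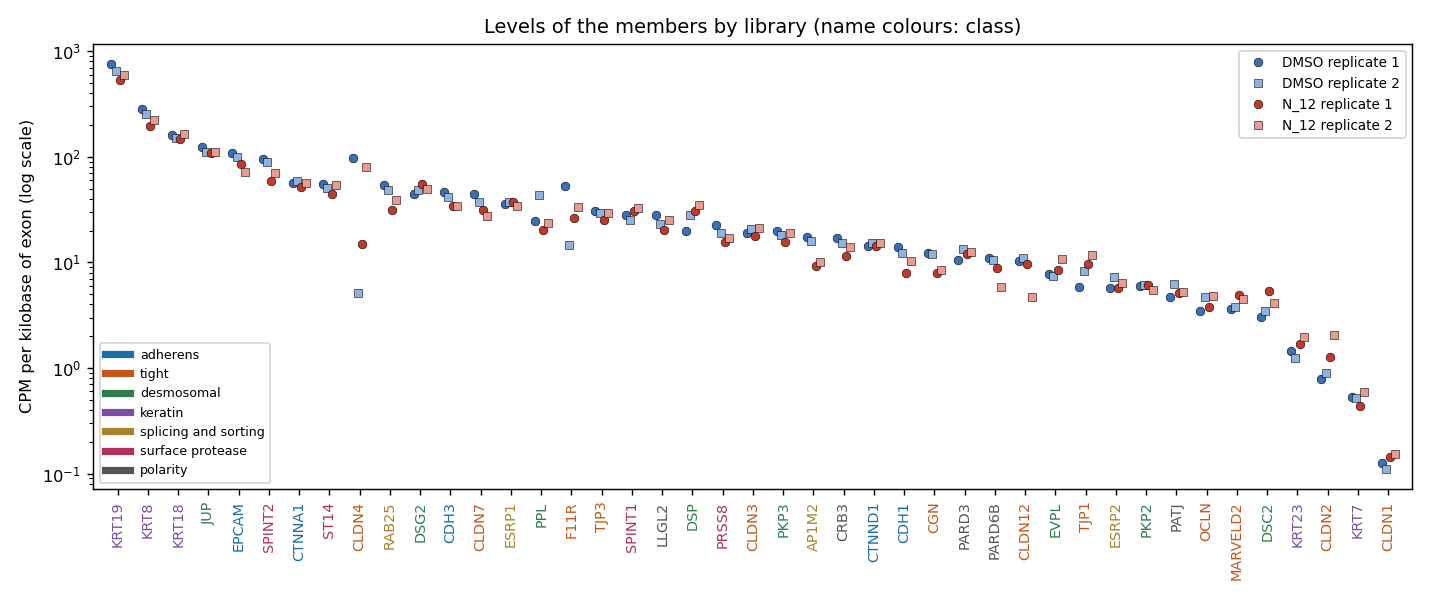
Level of each member in each library as CPM per kilobase of exon on a log scale, ordered by the DMSO mean, with names coloured by class; KRT20, which has a library at 0, is left out. KRT19 is highest and CLDN1 lowest, and CLDN4 and F11R show the wide gaps between libraries of 1 group.

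AP1M2 (ENSG00000129354) encodes the epithelial medium subunit of the clathrin adaptor that sorts proteins to the basolateral membrane. It measured 38.4 and 35.3 CPM in DMSO and 20.4 and 22.4 CPM in N_12, from counts of 1172, 1039, 858 and 914. Both N_12 libraries lay well below both controls, and the gaps within groups were small. The fall was 1.72-fold, from 36.9 ± 2.19 to 21.4 ± 1.45 CPM (SD, n = 2 per group), with a log2 fold change of -0.79 (SE 0.16, 95% interval -1.15 to -0.42, edgeR adjusted p = 0.0495). The adjusted p lies close to the threshold, and on simulated data this test called more unchanged genes than its threshold is meant to allow. AP1M2 kept its direction in all 14 alternatives (-0.86 to -0.72) and was called in 6 of them, with adjusted p from 0.000555 by DESeq2 to 0.202 without DMSO replicate 1. Leaving out any single library ended the call. Without either N_12 library the fit called nothing among all genes, so the loss of the call there says nothing of AP1M2 in particular. Limma-voom gave adjusted p = 0.0508.

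The other subunits of that adaptor on the list of further genes were not called. AP1M1, the medium subunit of all tissues, was at -0.17 (adjusted p = 0.620), AP1B1 at 0.21, AP1G1 at 0.07 and AP1S1 at -0.24. The ratio of AP1M2 to AP1M1 per kilobase was 4.15 and 3.55 in DMSO and 2.83 and 2.28 in N_12, without overlap. RAB25, an epithelial small GTPase of recycling endosomes, measured 91.9 and 81.8 CPM in DMSO and 53.1 and 65.9 CPM in N_12 (-0.54, SE 0.16, adjusted p = 0.117). Its relative RAB11B, a GTPase of the same endosomes, measured 97.4 and 84.2 CPM in DMSO and 131.2 and 145.7 CPM in N_12 (0.61, SE 0.14, adjusted p = 0.0718). Their ratio per kilobase was 1.37 and 1.41 in DMSO and 0.589 and 0.658 in N_12, with close values within groups. RAB11B shares 12.4% of its exon bases with its antisense gene RAB11B-AS1. RAB11A, also among the further sorting genes, did not share the rise of RAB11B. It measured 47.8 and 60.1 CPM in DMSO and 62.0 and 48.6 CPM in N_12 (0.04, SE 0.19, edgeR adjusted p = 0.932), with overlapping groups.

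RAB8A, which carries cargo to the apical side, was at 0.38 (SE 0.13, adjusted p = 0.151), with 37.8% of its exon bases shared with a gene on the other strand. Of the 10 further sorting genes, all tested, edgeR called none, 2 were higher and 0 lower at an unadjusted p under 0.05, and the median was 0.05. The splicing regulators ESRP1 and ESRP2, which set epithelial isoforms of many transcripts, gave values close to the controls. ESRP1 measured 174.6 and 180.4 CPM in DMSO and 180.9 and 167.2 CPM in N_12 (-0.03, SE 0.13, adjusted p = 0.923). ESRP2 measured 32.1 and 40.5 CPM in DMSO and 31.6 and 35.4 CPM in N_12 (-0.12, SE 0.18, adjusted p = 0.744). The groups overlapped for both. Isoforms cannot be read from counts per gene.

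**Figure D5:**
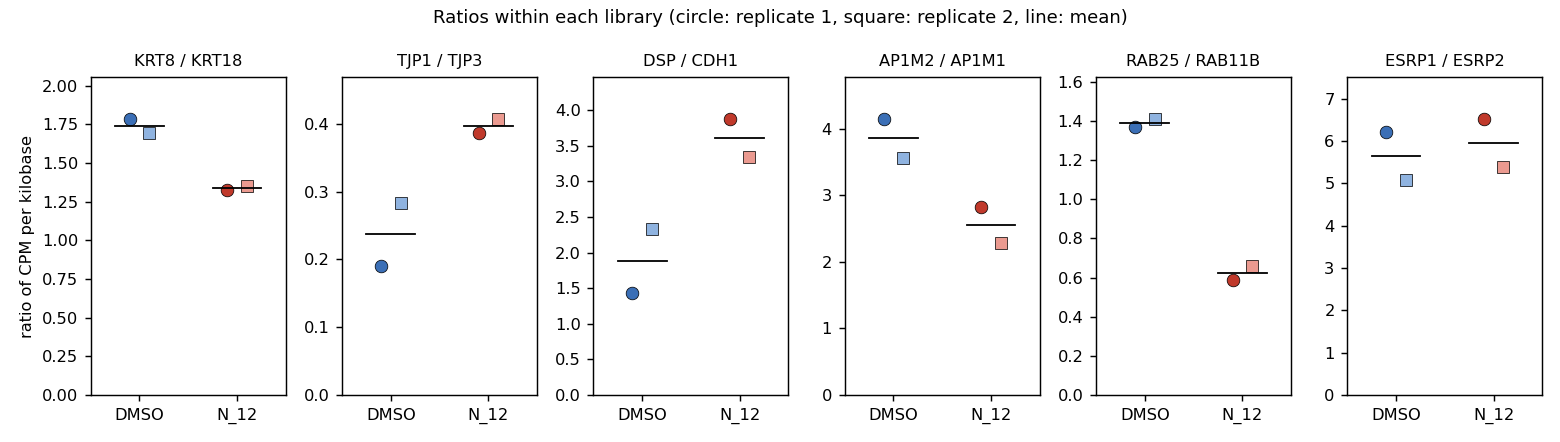
Ratio of 2 genes' CPM per kilobase within each library, with a line at the group mean and each axis starting at 0. KRT8/KRT18, DSP/CDH1, AP1M2/AP1M1, RAB25/RAB11B and TJP1/TJP3 do not overlap between groups, and ESRP1/ESRP2 does. The pairs were chosen after the values were seen.

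Within each library DSP stood at 1.44 and 2.33 times CDH1 per kilobase in DMSO and at 3.88 and 3.35 times in N_12. This ratio sets a desmosomal plaque gene against the cadherin of adherens junctions. DSC2 stood at 0.218 and 0.285 times CDH1 in DMSO and at 0.676 and 0.399 times in N_12. Neither ratio overlapped between groups, and both vary within a group by a sizeable part of their value.

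The surface protease members regulate each other at the membrane. SPINT2, a Kunitz-type inhibitor of membrane serine proteases, measured 496.9 and 459.8 CPM in DMSO and 308.4 and 367.0 CPM in N_12 (log2 fold change -0.50, SE 0.14, edgeR adjusted p = 0.101). Its relative SPINT1, which inhibits matriptase, measured 99.3 and 89.8 CPM in DMSO and 109.0 and 115.9 CPM in N_12 (0.25, SE 0.14, adjusted p = 0.325). The inhibitors thus lay on opposite sides of the controls, each without overlap and neither called. PRSS8, the prostasin that acts with matriptase, measured 68.1 and 57.4 CPM in DMSO and 46.6 and 51.2 CPM in N_12 (-0.36, SE 0.16, adjusted p = 0.240). ST14, the matriptase itself, measured 242.0 and 218.6 CPM in DMSO and 194.0 and 234.4 CPM in N_12 (-0.10, SE 0.15, adjusted p = 0.717), and its groups overlapped. The SPINT1 level per kilobase was 0.504 times that of ST14 in both DMSO libraries and 0.690 and 0.607 times in N_12.

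From the list of 7 further genes of this kind 3 were tested, none was called and 2 lay lower at an unadjusted p under 0.05. These were the serine protease genes PRSS22 (-0.54, SE 0.22, adjusted p = 0.215) and TMPRSS4 (-1.10, SE 0.46, adjusted p = 0.219), the latter on 13 to 22 counts per library. Their N_12 libraries lay below both controls.

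Polarity members define the apical domain and the border to the lateral membrane. PARD6B, a partner of atypical protein kinase C in the PAR complex, measured 52.5 and 49.7 CPM in DMSO and 41.6 and 27.5 CPM in N_12 (log2 fold change -0.56, SE 0.21, edgeR adjusted p = 0.184). CRB3, the Crumbs protein of the apical membrane, measured 27.2 and 24.4 CPM in DMSO and 18.1 and 22.1 CPM in N_12 (-0.36, SE 0.17, adjusted p = 0.272). Both had N_12 below DMSO, and PARD6B was lowest in N_12 replicate 2, CRB3 in N_12 replicate 1.

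LLGL2, a basolateral Lethal giant larvae protein, measured 223.8 and 182.6 CPM in DMSO and 159.2 and 200.4 CPM in N_12 (-0.18, SE 0.17, adjusted p = 0.575). PARD3, the scaffold of the PAR complex, measured 68.5 and 86.6 CPM in DMSO and 78.2 and 81.1 CPM in N_12 (0.04, SE 0.16, adjusted p = 0.913). PATJ, a scaffold of the Crumbs complex, measured 56.5 and 75.4 CPM in DMSO and 61.4 and 63.1 CPM in N_12 (-0.08, SE 0.17, adjusted p = 0.820). The groups overlapped for these 3 genes. Of 21 further polarity genes tested from a list of 22, none was called, 3 lay higher and 0 lower at an unadjusted p under 0.05, and the median was 0.01. DLG5, a Discs large scaffold, measured 110.0 and 109.3 CPM in DMSO and 143.5 and 156.7 CPM in N_12 (0.45, SE 0.13, adjusted p = 0.110), and shares 18.0% of its exon bases with genes on the other strand. PALS2, a scaffold of the membrane-associated guanylate kinase family, was at 0.44 (SE 0.17, adjusted p = 0.198).

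Over all classes, 77 of the 110 further junction, keratin, sorting, protease and polarity genes were tested. Of these edgeR called 0, with 10 higher and 9 lower at an unadjusted p under 0.05 and a median of 0.03. At that unadjusted p, 11% of all tested genes lay higher and 10.8% lower. The counts given above for the further genes of each class stand beside the same shares. Limma-voom also called 0 of the 77, and DESeq2 called 5 of 77: DSC3, RAB11B and DLG5 higher, and CXADR and KRT15 lower. DESeq2 called 8.68% of all tested genes (3.91% higher and 4.78% lower), so these 5 are no larger a share than among all genes. The summed level of the 44 members was 9927 and 8893 CPM in DMSO and 7705 and 8664 CPM in N_12, with N_12 at 87.0% of the DMSO mean. The groups did not overlap, but the gap between them was smaller than the gap within either group. Keratins make up the largest part of this sum.

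DESeq2 called AP1M2, CGN, RAB25 and SPINT2 lower, 4 of 43 members, where it called 4.78% of all tested genes lower. A correction for GC content and length called AP1M2, CGN and SPINT2 lower, beside 3.59% of all genes. Without N_12 replicate 1 or 2, edgeR called 0 genes of all those tested, with 2855 and 2763 at an unadjusted p under 0.05.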

How the data were processed

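The authors deposited whole-number counts per gene for 4 libraries of HCT116 cells, with no normalization, keyed by human Ensembl identifiers. The sources used here do not give the aligner, the counter or the strand setting, so reads of overlapping genes cannot be told apart. The submitters' processing notes name mouse builds, although the identifiers are human, so coordinates are printed only for RefSeq promoter windows. Symbols were found for 20148 of 20263 identifiers, and exon lengths, GC content and overlaps came from GENCODE 29.

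Counts were fitted over all genes with edgeR 4.0.16 in R 4.3.3 (TMM scaling, expression filter by group, robust quasi-likelihood test, two-sided, Benjamini-Hochberg adjusted p of 0.05). CPM use TMM-scaled totals of the tested genes. Each SE was derived from the F statistic of its fold change. The procedure was tested on simulated data, where it called more unchanged genes than the threshold is meant to allow. Within each group the libraries differed beyond counting error (chi-square over its degrees of freedom of 36.5 in DMSO and 57.2 in N_12), and each was counted once.

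The members and lists were chosen with earlier results of these data known. The naming rule gave every library's value for each called member, CDH1, EPCAM, and the 3 members with the smallest p of a class (all members in classes of 5 or fewer), and took the 2 further genes with the smallest p of each class. Other genes given with values, such as CLDN4, F11R, PPL, TJP1, CLDN12, PKP4 and the adaptor subunits, and all ratios were added after values were seen. Alternatives were other scalings and filters, a replicate block, leaving out each library, limma-voom (limma 3.58.1), DESeq2 1.42.0, non-robust dispersions and a GC and length correction.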

Additional observations from a re-analysis of the deposited data

How the results depend on the processing

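The number of genes called by edgeR was 317. It was 963 with a replicate block, 1225 by DESeq2, 131 with dispersions estimated without robust weights, 898 with the GC and length correction and 12 with the block and that correction together, and 0 to 451 when each library was left out. With 1 library left in a group, the lone library is assumed to vary like the other group. Calls among members numbered 0 with scaling by library totals, 0 by limma-voom, 0 without robust weights, 4 by DESeq2 and 3 with the correction, and 0 to 2 when each library was left out. The replicate block gave 5 (AP1M2, CLDN12 and PPL lower, CLDN2 and TJP1 higher), beside 6.83% of all genes, and the block with the correction gave 0. Deviations of same-numbered libraries had a correlation of -0.0895 across all tested genes and -0.694 across the 43 members, which are not independent points. CLDN4 spread most widely of the 43 in both groups, 18.8-fold in DMSO (replicate 1 high) and 5.33-fold in N_12 (replicate 2 high). The median fold was 1.11 in DMSO and 1.13 in N_12 for the 39 members averaging 5 CPM or more. The member correlation was not computed without CLDN4, so it cannot be read as a pattern of the list. The labels do not say that a number marks a shared culture, so the libraries were taken to share only a number.

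Medians moved beyond their spread for keratins under the stricter filter (-0.33), for tight junctions to 0.0795 with the block, 0.0796 by limma-voom and 0.089 with block and correction, and for polarity to -0.24 with the correction, with or without the block. When each library was left out, the median ranged from -0.20 to -0.055 over all members, -0.43 to -0.27 for adherens, -0.16 to 0.14 for tight junction, 0.034 to 0.12 for desmosomal, -0.28 to 0.0695 for keratin, -0.46 to -0.26 for sorting, -0.34 to -0.13 for protease and -0.32 to -0.082 for polarity members. With the block, the middle tight junction members were OCLN (0.064) and F11R (0.095), where CLDN4 and CLDN3 were the middle members in the main fit. The cause of the moves was otherwise not tested.

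Of 43 members, 30 kept their sign in all 14 alternatives. With scaling by totals CTNND1 turned to 0.043, ESRP1 to 0.018, CLDN3 to 0.028, PKP2 to 0.0046 and KRT7 to 0.014, and without a filter CTNND1 turned to 0.0089. CLDN4 turned to 0.60 and F11R to 0.095 with the block, to 0.62 and 0.095 by limma-voom, and to 0.58 and 0.056 with block and correction. With the correction CLDN3 turned to 0.12 and PARD3 to -0.00425, and with block and correction CLDN3 was at 0.12. Leaving out single libraries moved CLDN4 from -1.76 to 3.20, F11R from -0.83 to 1.04, CLDN3 from -0.15 to 0.078, CTNND1 from -0.055 to 0.034, ESRP1 from -0.10 to 0.023, ESRP2 from -0.27 to 0.063, KRT18 from -0.064 to 0.0695, KRT7 from -0.28 to 0.16, OCLN from -0.14 to 0.30, PARD3 from -0.12 to 0.22, PATJ from -0.28 to 0.14, PKP2 from -0.14 to 0.032 and ST14 from -0.25 to 0.0097. CLDN1, CLDN2, KRT7, KRT20 and KRT23 rest on low counts.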
